A study of Mus musculus with 6 samples.

Results

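Cholesterol and fatty acid metabolism was followed here through 39 genes, out of 24063 gene symbols in the count tables, in lung endothelial cells (ECs) of sham-operated mice and of mice 7 days after unilateral pneumonectomy (PNX). In PNX, a whole lung is taken out and the lung left behind enlarges. The genes were taken from a given list of enzymes and regulators of sterol synthesis, fatty acid synthesis, and lipid uptake and efflux, matched by symbol. The rule used no expression value, but the genes were chosen with earlier results of these data known. They were grouped by role into 14 genes of sterol synthesis, 5 of the SREBP pathway, 10 of fatty acid synthesis and desaturation, 5 of sterol transport, efflux and liver X receptor (LXR), and 5 of fatty acid uptake and use.

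Cells build cholesterol from acetyl-CoA through the mevalonate pathway and build fatty acids through fatty acid synthase, after which elongases lengthen the chains and desaturases add double bonds. SREBP transcription factors are held in the endoplasmic reticulum by SCAP and INSIG proteins when sterol is plentiful, and are released to switch on both sets of enzymes when sterol is low. The LXR receptors act in the opposite case and switch on sterol efflux. Capillary ECs of the lung take up and pass on circulating fatty acids, with CD36 as a surface carrier.

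The study compared RNA of ECs that the authors isolated with anti-CD31 magnetic beads from lungs of male C57BL6 mice, with 3 libraries from sham-operated mice (thoracotomy without PNX) and 3 from mice 7 days after left PNX. Each library was pooled from 2 mice. The labels give an age of 8 weeks and the methods a higher one. Replicates 1 and 2 of both groups are marked in the labels as re-used records of an earlier deposit, whereas replicate 3 of each group is not so marked and is called the later deposit here. No transgene, diet or drug separated the groups, so the surgery was the labelled difference.

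Total counts ranged from 65763553 to 81282871 in the 4 libraries of the earlier deposit and were 33374216 and 29526989 in the later sham and PNX libraries. Replicates 1 and 2 of a group differed by little more than counting error (chi-square per degree of freedom of 1.75 in sham over 11747 genes and 1.57 in PNX over 11758 genes, against 67.9 to 86.4 for pairs with replicate 3). They were therefore summed and counted as 1 sample, which left 2 samples per group, and p-values measure only the spread between these samples. The difference between deposits ran in parallel in sham and PNX (across 15099 genes, which are not independent replicates, r = 0.72 by Pearson and rho = 0.73 by Spearman), and the fit with the deposit as a replicate block is given beside the fit without it. All 10 EC markers examined were detected in every library, Pecam1 at 2038 to 2494 CPM (counts scaled to a common library size with TMM factors). Markers of other lung cells were present as well, for example Sftpc of alveolar type 2 cells at 812 to 2529 CPM.

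The promoters of sterol genes are known for binding sites of SREBP and of its partner NF-Y, so these were searched in the reference sequence. In the 250 bases before each RefSeq transcription start (GRCm38.p6), CCAAT on either strand, the box bound by NF-Y, was found in 21 of the 29 member genes listed there (72.4%), compared to 37.5% of 27025 genes with the same window. A gene was counted if any of its listed starts held CCAAT. By start, it was in 55% of 40 member starts and 33.85% of 32851 starts. The 11 sterol synthesis genes with a window (Cyp51, Dhcr7, Hmgcs1, Idi1, Lss, Msmo1, Mvd, Mvk, Nsdhl, Pmvk and Sc5d) all held it, in 11 of their 14 starts. It was in 4 of 5 SREBP pathway genes, 3 of 7 fatty acid synthesis genes, 0 of 3 sterol transport genes and 3 of 3 uptake genes. A sterol regulatory element written as TCACNCCAC, on either strand, was in 1.225% of all genes and in 2 members, Hmgcs1 and Acsl1. The E-box CACGTG was in 6.86% of all genes and in 6 members (20.7%), namely Abca1, Dhcr7, Elovl5, Insig1, Sc5d and Scap. These are matches of letters and not evidence of binding. No window was listed for Sqle, Fdps, Fdft1, Scd1, Scd2, Fads1, Stard4, Abcg1, Lpl and Fabp5.

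The windows of 5 members are shown 5′ to 3′ on the strand of the gene, with each match to TCACNCCAC, CCAAT or CACGTG on either strand in capitals, so ATTGG is CCAAT on the other strand. Hmgcs1 (chr13:119690101-119690350, plus strand) and Msmo1 (chr8:64733579-64733828, minus strand) stand for sterol synthesis. Fasn (chr11:120824548-120824797, minus strand), Cd36 (chr5:17835897-17836146, minus strand) and Abca1 (chr4:53159896-53160145, minus strand) are members with an adjusted p under 0.05 in the fit with the replicate block.
Hmgcs1: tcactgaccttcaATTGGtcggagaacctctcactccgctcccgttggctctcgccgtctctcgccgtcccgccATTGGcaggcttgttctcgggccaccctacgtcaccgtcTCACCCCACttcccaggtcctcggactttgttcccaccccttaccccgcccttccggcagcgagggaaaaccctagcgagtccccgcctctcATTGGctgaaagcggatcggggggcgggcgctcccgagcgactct
Msmo1: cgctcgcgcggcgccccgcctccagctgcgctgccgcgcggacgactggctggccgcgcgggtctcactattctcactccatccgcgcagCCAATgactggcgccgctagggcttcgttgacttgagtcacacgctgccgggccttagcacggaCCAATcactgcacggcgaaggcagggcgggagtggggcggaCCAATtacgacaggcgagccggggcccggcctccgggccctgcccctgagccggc
Fasn: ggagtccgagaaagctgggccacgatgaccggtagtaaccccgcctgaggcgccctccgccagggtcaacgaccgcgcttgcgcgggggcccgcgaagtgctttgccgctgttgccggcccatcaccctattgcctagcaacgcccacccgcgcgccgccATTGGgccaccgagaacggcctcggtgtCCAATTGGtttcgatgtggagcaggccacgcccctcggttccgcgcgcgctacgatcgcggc
Cd36: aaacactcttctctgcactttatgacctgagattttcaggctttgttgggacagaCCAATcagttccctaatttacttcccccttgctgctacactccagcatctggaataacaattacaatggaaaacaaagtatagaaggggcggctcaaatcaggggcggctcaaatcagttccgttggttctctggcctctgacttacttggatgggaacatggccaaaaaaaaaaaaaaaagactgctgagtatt
Abca1: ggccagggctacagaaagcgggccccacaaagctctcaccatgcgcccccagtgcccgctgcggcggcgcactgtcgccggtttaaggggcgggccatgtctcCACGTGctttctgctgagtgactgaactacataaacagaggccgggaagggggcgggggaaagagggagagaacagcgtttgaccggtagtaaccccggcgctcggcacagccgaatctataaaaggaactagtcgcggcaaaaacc
Hmgcs1, the enzyme that makes HMG-CoA ahead of the mevalonate step, was the printed gene with both the sterol element (positions -137 to -129 from the start) and CCAAT. Msmo1, a demethylase of the sterol ring, held 3 copies of CCAAT within 160 bases of its start. In Fasn, 2 of the 3 copies overlapped on opposite strands as CCAATTGG. Fads2 and Elovl6, which encode a desaturase and an elongase, held none of the 3 motifs in their windows.

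The first comparison asked which of the 39 genes differed between ECs after PNX and after sham surgery. Genes of fatty acid synthesis and uptake were found on both sides of sham, and no sterol synthesis gene passed an adjusted p of 0.05 in edgeR with the replicate block. Of the 39 members, 7 (17.9%) had an adjusted p under 0.05 in edgeR's quasi-likelihood test with the replicate block, compared to 21.6% of the 16598 genes tested. Those higher after PNX were Fads2, Elovl6, Fabp5 and Abca1 (10.3% of members, against 11.5% of all genes), and those lower were Scd1, Fasn and Cd36 (7.69%, against 10.1%). At the thresholds of the study, an adjusted p under 0.01 with an absolute log2 fold change above 1, 0 members were called with the block, compared to 849 of 16598 genes (5.12%, with 3.89% higher and 1.23% lower).

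Without the block, edgeR called 0 of 16598 genes (0%) and 0 members at the thresholds of the study. The unadjusted p was under 0.05 for 2076 genes, among them Scd1 and Fabp5 of the members. On the same 4 samples DESeq2 called 572 genes (3.45%) and limma-voom 0, with 0 members in each. All 39 members passed the filter on low counts, and the lowest count of any of them in a library was 183, for Idi1. The 7 members are therefore described as higher or lower in the blocked fit, which has 1 residual degree of freedom.

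**Figure D1:**
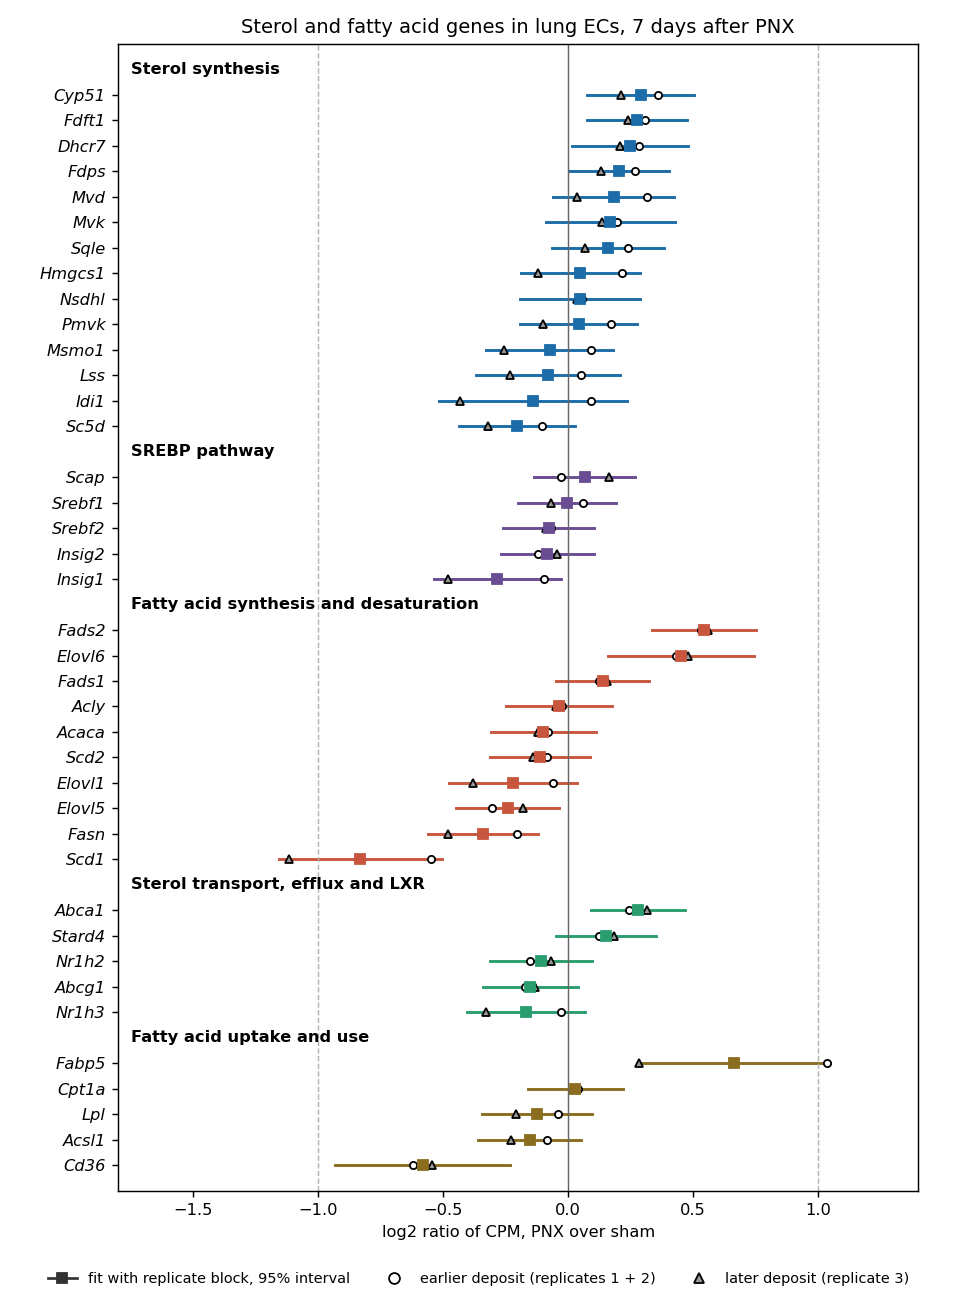
Log2 ratio of CPM, PNX over sham, for the 39 members by role, with the edgeR log2 fold change of the fit with the replicate block and its 95% interval (squares and bars), the earlier deposit (circles) and the later deposit (triangles). The sterol synthesis intervals lie between -0.52 and 0.50, and only Scd1 and Fabp5 have intervals that reach past 1 in size (dashed lines).

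The median log2 fold change of the members with the block was -0.037, beside -0.013 for all genes tested. With the block, the 95% intervals of 37 of 39 members lay within 1 log2 unit of 0, and those of 26 included 0. Without the block, intervals reached -1.35 for Cd36 and 1.36 for Fads2. In both deposits 15 members (38.5%) were higher after PNX and 17 (43.6%) lower, compared to 36.0% and 39.3% of all genes, and 7 had opposite signs. The 2 PNX samples lay above both sham samples for 4 members (10.3%), where 21.6% of all genes did so, and below them for 6 (15.4%), where 21.2% did. The 4 above were Fdps, Mvk, Elovl6 and Fabp5, and the 6 below were Sc5d, Fasn, Scd1, Elovl1, Nr1h2 and Cd36. No member had a log2 ratio past 1 in the same direction in both deposits, whereas 4.5% of all genes did so upward and 1.54% downward.

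**Figure D2:**
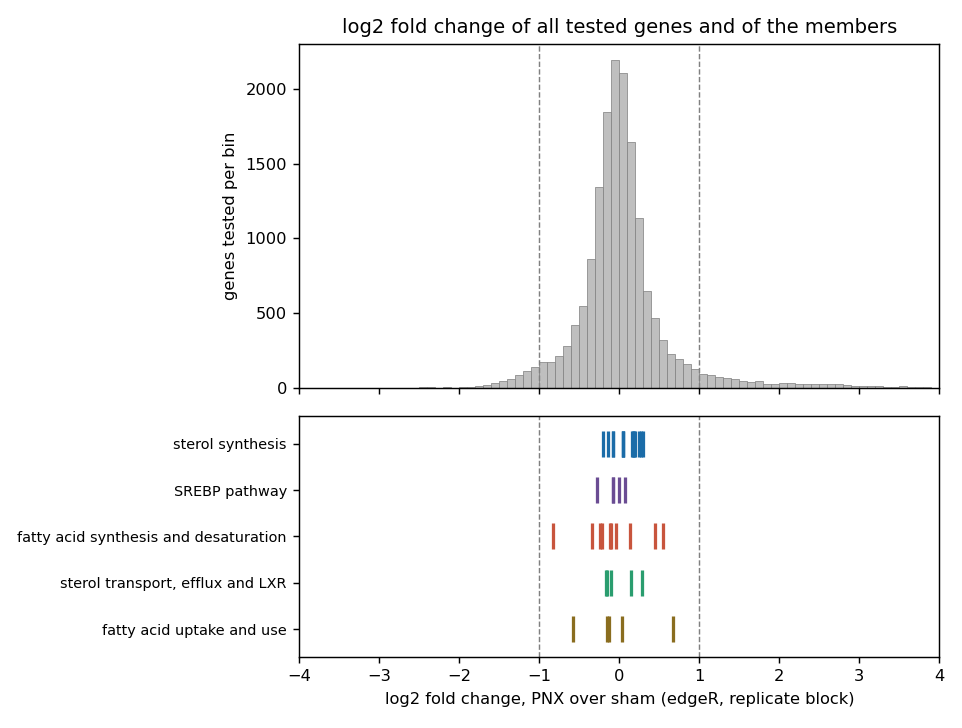
Number of genes per bin of log2 fold change, PNX over sham, in edgeR with the replicate block for all genes tested (grey bars), above the position of each member by role (ticks). All members lie between -0.83 and 0.66, inside the dashed lines at 1 log2 unit.

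Sterol synthesis genes encode the steps from acetyl-CoA to cholesterol. None of the 14 passed an adjusted p of 0.05 with the block in either direction, where 21.6% of all genes passed. Their log2 fold changes with the block ran from -0.21 to 0.29 with a median of 0.10. In both deposits 8 (57.1%) were higher after PNX and 1 (7.14%), Sc5d, was lower, compared to 36.0% and 39.3% of all genes. Another 5 had opposite signs. The largest difference was in Cyp51, lanosterol demethylase, at 21.6, 20.8 and 29.7 CPM in sham replicates 1, 2 and 3 and 27.6, 28.0 and 33.8 CPM in PNX replicates 1, 2 and 3. Each PNX library was higher than the sham library of its deposit, but the groups overlapped across deposits. Its log2 fold change was 0.29 ± 0.091 (SE, 2 samples per group; edgeR adjusted p = 0.0609 with the block and 0.702 without).

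Fdft1, squalene synthase, the first step committed to sterols, had 24.8, 24.4 and 33.5 CPM in sham and 31.6, 30.4 and 38.8 CPM after PNX. Dhcr7, a last reductase of the pathway, had 12.4, 11.6 and 17.2 CPM in sham and 14.8, 14.9 and 19.5 CPM after PNX. Both were higher after PNX within each deposit and overlapped between groups. Their log2 fold changes were 0.28 ± 0.085 (SE; edgeR adjusted p = 0.0596 with the block) and 0.25 ± 0.099 (SE; adjusted p = 0.122). Of the 39 members, 14 overlap a gene on the opposite strand, among them Fdft1 (Ctsb) and Cyp51 (Akap9). Use of the strand in counting is not given in the sources used here. Fdft1 and Cyp51 had adjusted p-values under 0.05 when limma-voom replaced edgeR in the blocked fit, beside 24.6% of all genes. The same held when the transcript with the highest count stood for the gene (21.8% of all genes). With the 6 libraries kept separate in the blocked edgeR fit, 51.6% of all genes passed, among them Sqle, Fdps, Fdft1, Cyp51, Dhcr7, Mvd and Mvk. That fit counts replicates 1 and 2, which differ by little more than counting error, as separate samples.

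The remaining sterol synthesis genes differed less. Fdps, farnesyl diphosphate synthase, had 43.3, 39.8 and 48.4 CPM in sham and 51.3, 50.8 and 52.0 CPM after PNX, so all PNX libraries were above all sham libraries, with a log2 fold change of 0.20 (95% interval 0.0015 to 0.40). Its adjusted p was 0.138 in edgeR with the block. Of its sequence in windows of 75 bases, 80.4% is shared with other genes and 74.9% with Gm43738, which overlaps Fdps on the same strand. How reads in shared sequence were counted is not given in the sources used, so the counts of Fdps are uncertain. Mvk, mevalonate kinase, had 10.3, 10.6 and 11.3 CPM in sham and 12.2, 12.1 and 12.1 CPM after PNX with a log2 fold change of 0.17. Sc5d, a sterol desaturase, had 26.4, 25.5 and 25.6 CPM in sham and 24.4, 24.8 and 20.1 CPM after PNX with -0.21. The log2 fold change was 0.18 for Mvd, 0.16 for Sqle (squalene epoxidase), 0.048 for Hmgcs1, 0.046 for Nsdhl, 0.042 for Pmvk, -0.075 for Msmo1, -0.082 for Lss (lanosterol synthase) and -0.14 for Idi1. Adjusted p-values of the group ran from 0.0596 to 0.805 in edgeR with the block, where every interval lay within 0.52 log2 units of 0. Without the block the intervals reached -0.96 for Lss and 0.90 for Dhcr7, so differences above 0.52 are not excluded there.

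The SREBP pathway genes sense sterol and drive these enzymes. With the block they gave 0 of 5 at an adjusted p of 0.05, where 21.6% of all genes passed. The groups overlapped for all 5. Insig1, which retains SCAP when sterol is high and is itself an SREBP target, had 45.4, 44.2 and 77.2 CPM in sham and 42.1, 43.4 and 54.2 CPM after PNX. The later sham library stood above the other 5, and in the earlier deposit the PNX libraries lay just below the sham libraries. The log2 fold change was -0.28 ± 0.11 (SE; edgeR adjusted p = 0.105 with the block), with -0.097 (earlier) and -0.48 (later) within the deposits. Insig2, its paralog, had 110.2, 109 and 83.5 CPM in sham and 102, 104 and 79.4 CPM after PNX with a log2 fold change of -0.083. Counts of Insig2 were summed over 4 transcripts, so reads may have entered more than once and its CPM may be too high. This limit holds for every member with more than 1 transcript (12 of 39). Srebf2, the factor mainly tied to sterol genes, had 95.5, 96.6 and 126 CPM in sham and 93.5, 93.2 and 116 CPM after PNX with -0.078. Srebf1, mainly tied to fatty acid genes, had -0.0041 and Scap, the SREBP escort, had 0.065.

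Fatty acid synthesis and desaturation held the widest range of the members, from -0.83 for Scd1 to 0.54 for Fads2. Of its 10 genes, 4 passed an adjusted p of 0.05 with the block, 2 in each direction, where 21.6% of all genes passed. Scd1, the stearoyl-CoA desaturase that makes oleate and palmitoleate, had 311, 309.5 and 410.0 CPM in sham replicates 1, 2 and 3 and 215, 216 and 185 CPM in PNX replicates 1, 2 and 3. All PNX libraries lay below all sham libraries, and the later deposit showed both the highest sham and the lowest PNX level. Scd1 fell by 0.83 ± 0.14 on the log2 scale (SE, 2 samples per group; 95% interval -1.16 to -0.50; edgeR adjusted p = 0.0066 with the block and 0.184 without). Within the deposits the log2 ratio was -0.55 (earlier) and -1.12 (later). Scd1 lies on chr19:44394455-44407879 (GRCm38, minus strand, 6 exons) and shares 3.24% of its windows with other genes.

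In bulk RNA, fewer cells of a type and less RNA per cell cannot be told apart. Alveolar type 2 cells, which make lipid-rich surfactant, express Scd1 and Fasn strongly. Their 10 markers were all lower after PNX at an adjusted p of 0.05 in edgeR with the block, with a median log2 ratio of -0.58 (earlier deposit) and -1.25 (later deposit). The sum of the 10 markers was 5616 to 6127 CPM in the sham libraries and 2182 to 3710 CPM in the PNX libraries, with none at 0. Their part in the lower Scd1 and Fasn was not tested.

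Fasn, fatty acid synthase, had 105, 108 and 147 CPM in sham and 94.2, 93.3 and 104 CPM after PNX, and all PNX libraries lay below all sham libraries, by little in the earlier deposit. Fasn fell by 0.34 ± 0.094 on the log2 scale (SE; edgeR adjusted p = 0.0407 with the block and 0.566 without). Within the deposits the log2 ratio was -0.21 (earlier) and -0.48 (later), and in the unblocked fit Fasn was at -0.11 without sham replicate 3. Acly and Acaca, which supply acetyl-CoA and malonyl-CoA to Fasn, had log2 fold changes of -0.037 and -0.10. Acaca shares 50.0% of its windows with another gene.

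Fads2, the desaturase that starts the synthesis of long polyunsaturated fatty acids, had 16.5, 16.4 and 25.5 CPM in sham and 23.6, 24.9 and 36.9 CPM after PNX. The PNX libraries were higher within each deposit, while the later sham library lay above the earlier PNX libraries. Fads2 rose by 0.54 ± 0.088 on the log2 scale (SE; 95% interval 0.34 to 0.75; edgeR adjusted p = 0.0059 with the block and 0.58 without), at 0.53 (earlier deposit) and 0.56 (later deposit). In the unblocked fit the log2 fold change of Fads2 was 0.20 without PNX replicate 3 and 0.89 without sham replicate 3. Fads1, its neighbour on chromosome 19 and a later desaturase of the same route, had 65.0, 65.7 and 77.6 CPM in sham and 73.2, 71.6 and 84.6 CPM after PNX with a log2 fold change of 0.14 (interval -0.048 to 0.32; adjusted p = 0.261). The difference between the changes of Fads2 and Fads1 was not tested.

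Elovl6, the elongase that turns palmitate into stearate, had 7.12, 7.30 and 6.77 CPM in sham and 9.68, 10.1 and 9.25 CPM after PNX, all PNX libraries above all sham libraries. Elovl6 rose by 0.45 ± 0.12 on the log2 scale (SE; edgeR adjusted p = 0.0407 with the block and 0.404 without), with 0.43 and 0.48 in the earlier and later deposits. Its level was the lowest of the 39 members per length, at 2.95 TPM in sham (deposited length-scaled values of the highest-count transcript, mean of 2 samples) and 4.03 TPM after PNX. Elovl1, an elongase of very long chains, had 369.6, 367 and 396 CPM in sham and 357, 363 and 299 CPM after PNX. Elovl5, an elongase of polyunsaturated chains, had 243, 236 and 191 CPM in sham and 199.6, 195 and 165 CPM after PNX. The PNX libraries of Elovl1 were all below its sham libraries and those of Elovl5 overlapped with sham, with log2 fold changes of -0.22 and -0.24 (edgeR adjusted p = 0.198 and 0.0895 with the block). Elovl6 overlaps a gene on the opposite strand, as does Elovl1 (Cdc20), and use of the strand in counting is not given. Scd2, a desaturase on the same chromosome as Scd1, had 238, 239 and 209 CPM in sham and 226, 231 and 186 CPM after PNX with a log2 fold change of -0.11 (interval -0.31 to 0.087).

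**Figure D3:**
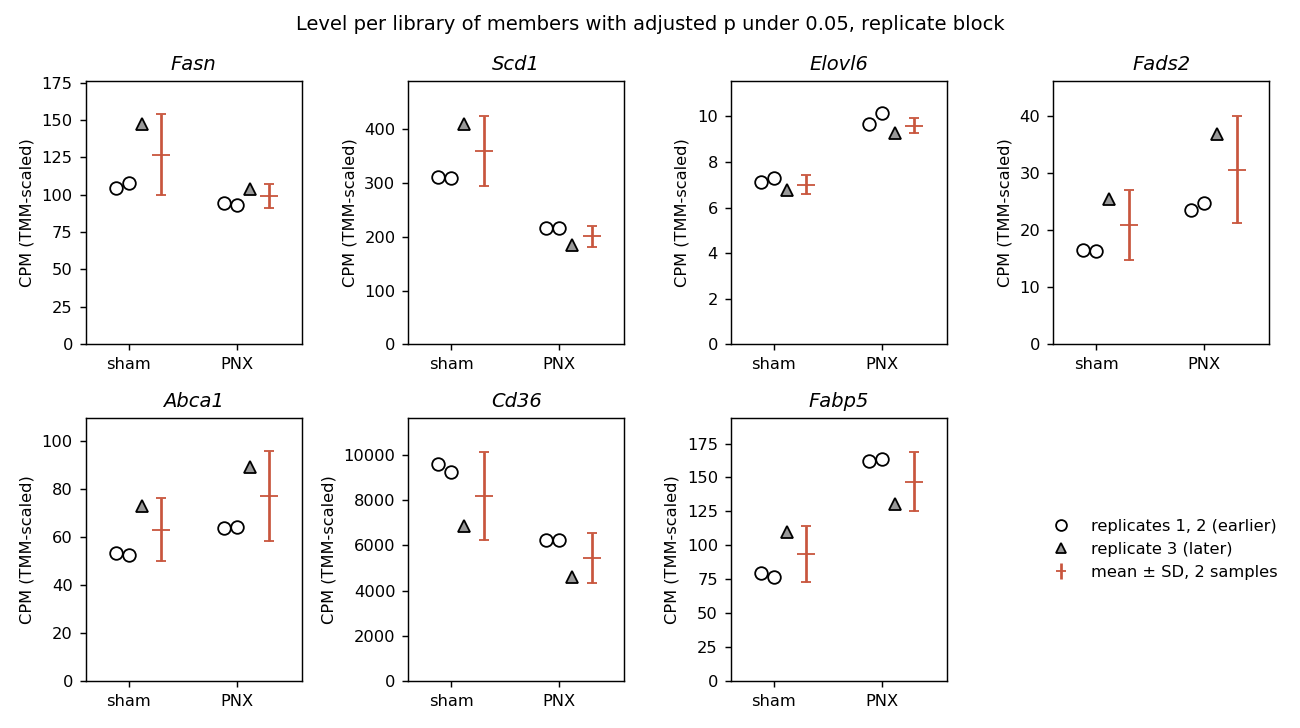
CPM (TMM-scaled, linear axis from 0) of the 7 members with an adjusted p under 0.05 in the fit with the replicate block, in replicates 1 and 2 (circles) and 3 (triangles) of each group, with the mean ± SD of 2 samples. The groups are separate for Scd1, Fasn, Cd36, Elovl6 and Fabp5 and overlap between deposits for Fads2 and Abca1.

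Sterol transport, efflux and LXR genes gave 1 of 5 at an adjusted p of 0.05 with the block, where 21.6% of all genes passed. Abca1, the pump that loads cholesterol onto apolipoprotein A-I and an LXR target, had 53.4, 52.5 and 73.0 CPM in sham and 63.6, 64.3 and 89.1 CPM after PNX. The groups overlapped between deposits and were separate within the earlier one. Abca1 rose by 0.28 ± 0.080 on the log2 scale (SE; edgeR adjusted p = 0.0469 with the block and 0.733 without), with 0.24 and 0.32 in the earlier and later deposits. In the unblocked fit Abca1 was at 0.015 without PNX replicate 3 and at 0.53 without sham replicate 3. Abcg1, the partner pump for high-density lipoprotein, had 115, 116 and 184 CPM in sham and 102, 106 and 165 CPM after PNX, a log2 fold change of -0.15 (interval -0.34 to 0.037). Nr1h3 (LXR alpha) had 50.6, 51.4 and 36.1 CPM in sham and 51.5, 50.4 and 28.2 CPM after PNX with -0.17. Nr1h2 (LXR beta) had a log2 fold change of -0.11 and Stard4, a cytosolic sterol carrier, 0.15, and all 4 genes beside Abca1 were above an adjusted p of 0.05.

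Fatty acid uptake and use gave 2 of 5 genes at an adjusted p of 0.05 with the block, in opposite directions, where 21.6% of all genes passed. Cd36, the fatty acid translocase, had 9593, 9232 and 6870.4 CPM in sham and 6243, 6246 and 4616 CPM after PNX. All PNX libraries lay below all sham libraries, and the later deposit was the lower in both groups. Cd36 fell by 0.58 ± 0.15 on the log2 scale (SE; 95% interval -0.93 to -0.23; edgeR adjusted p = 0.0318 with the block and 0.516 without), at -0.62 (earlier deposit) and -0.55 (later deposit). Per length it was the most abundant member, at 1187 TPM in sham and 787 TPM after PNX. Its counts were summed over 5 transcripts, 2 of which carry the same counts, so reads may have entered more than once. Summed over the 5 transcripts the sham level was 5854 TPM, so the CPM of Cd36 may be several times too high. The 10 EC markers had median log2 ratios of -0.27 and -0.10 in the earlier and later deposits. Of these 10 markers, 1 (Tek, -0.51) was lower at an adjusted p of 0.05 with the block, where 10.1% of all genes were lower. The sum of the 10 markers was 8754 to 10946 CPM in sham and 7994 to 9177 CPM after PNX, and its part in the lower Cd36 was not tested.

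Fabp5, a fatty acid-binding protein of the cytosol, had 79.5, 76.5 and 109 CPM in sham and 162, 164 and 130.5 CPM after PNX, all PNX libraries above all sham libraries. Fabp5 rose by 0.66 ± 0.16 on the log2 scale (SE; 95% interval 0.28 to 1.05; edgeR adjusted p = 0.0278 with the block and 0.331 without). The rise differed in size between deposits, with a log2 ratio of 1.04 in the earlier and 0.28 in the later. Macrophages express Fabp5, and of 10 macrophage markers 9 were higher and 1 (Siglecf) lower in edgeR with the block at an adjusted p of 0.05. The median marker ratio was 1.33 (earlier deposit) and 0.43 (later deposit) on the log2 scale. The sum of the 10 was 1309 to 2588 CPM in sham and 3341 to 3548 CPM after PNX, with none at 0. Chil3 made up most of this sum, at 906 to 1750 CPM in sham and 2114 to 2606 CPM after PNX. The part of these markers in the higher Fabp5 was not tested. Of the windows of Fabp5, 12.1% are shared with another gene.

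The other uptake genes stayed nearer to sham. Lpl, the lipase that frees fatty acids from lipoproteins, had 245, 241 and 350.1 CPM in sham and 240.1, 242 and 297 CPM after PNX with a log2 fold change of -0.12. Acsl1, which activates fatty acids to acyl-CoA, had 30.8, 31.2 and 42.1 CPM in sham and 31.1, 28.3 and 35.2 CPM after PNX with -0.15. Cpt1a, the entry to mitochondrial oxidation, had 162, 159 and 142 CPM in sham and 166, 169 and 141 CPM after PNX with 0.028 (interval -0.16 to 0.22). Lpl overlapped between groups, as did Acsl1 and Cpt1a.

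**Figure D4:**
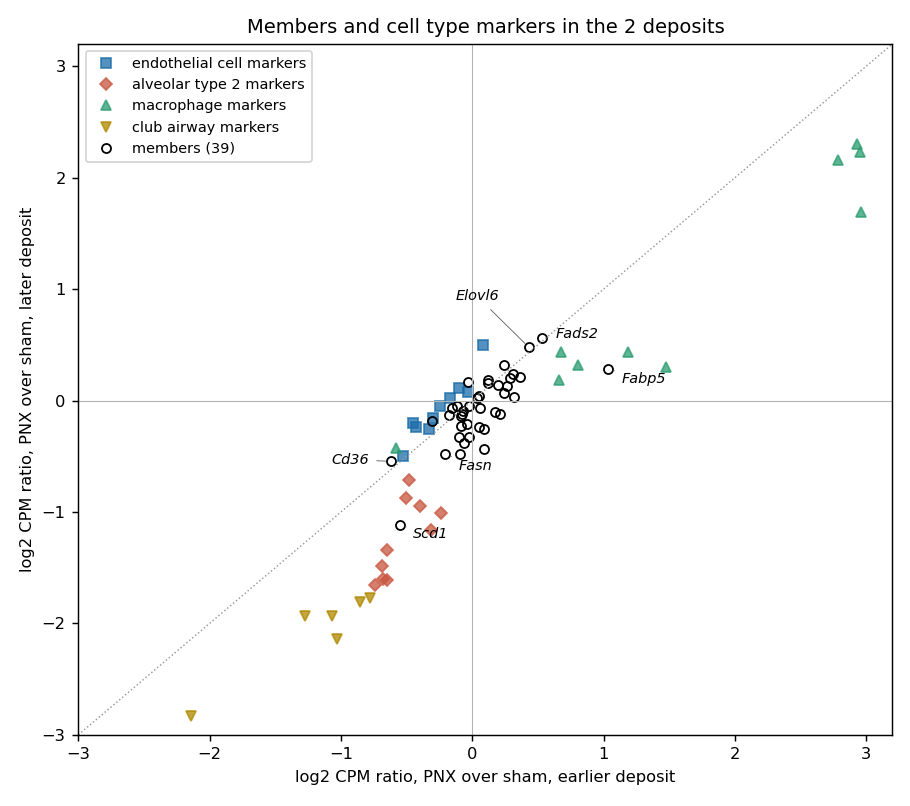
Log2 CPM ratio, PNX over sham, in the earlier (x axis) against the later deposit (y axis) for the 39 members (open circles) and the markers of ECs, alveolar type 2 cells, macrophages and club cells, with the dotted line at equality. Scd1 lies at -0.55 and -1.12, Fasn at -0.21 and -0.48 and Cd36 at -0.62 and -0.55, and most members lie near 0. The part of any cell type in the member ratios was not tested.

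The level per length in sham ECs was compared by the TPM of the highest-count transcript of each gene (mean of 2 samples), which leaves out the other transcripts of 12 genes. Cd36 at 1187 TPM was followed by Elovl5 (194 TPM), Scd1 (187 TPM), Lpl (184 TPM), Elovl1 (179 TPM), Scd2 (103 TPM), Acly (90.2 TPM), Cpt1a (88.3 TPM) and Fabp5 (84.8 TPM). The sterol synthesis genes ran from 6.99 TPM for Idi1 to 44.4 TPM for Hmgcs1. With the TPM of all transcripts of a gene summed, which counts a read more than once if transcripts share it, Cd36 (5854 TPM) stayed the highest and Elovl6 the lowest, but Elovl1 (550.2 TPM, 3 transcripts), Nr1h2 (309 TPM, 4 transcripts) and Fabp5 (264 TPM, 3 transcripts) came before Elovl5, so the order between these genes depends on how transcripts are counted. Single genes also differed between deposits. In sham, the log2 ratio of the later to the earlier sample was 0.75 for Insig1, 0.74 for Lss, 0.64 for Abcg1, -0.49 for Cd36 and -0.53 for Nr1h3. By highest-count transcript, Elovl5, Scd1, Lpl and Elovl1 were not separated from each other beyond this spread, nor were Acly, Cpt1a and Fabp5, whereas Cd36 lay above the other members in every library. Of the 39 members, 29 were higher in the later deposit in sham and 23 after PNX.

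A list of 60 further genes of the same pathways, written for their function, gave 59 tested, of which 12 (20.3%) had an adjusted p under 0.05 in edgeR with the block, 5 higher and 7 lower, beside 21.6% of all genes (11.5% higher and 10.1% lower). At the thresholds of the study 1 of 59 was called (1.69%), Fabp4, compared to 5.12% of all genes. Fabp4, the fatty acid-binding protein of adipocytes and capillary ECs, had 14.5, 14.5 and 14.2 CPM in sham and 32.8, 33.3 and 26.3 CPM after PNX. All PNX libraries were above all sham libraries, and Fabp4 rose by 1.05 ± 0.10 on the log2 scale (SE; edgeR adjusted p = 0.00066 with the block and 0.111 without). Adipocyte markers gave 3 of 7 tested higher (Adipoq, Cfd and Plin1) and 1 lower (Cidec). Cidec made up most of the sum of these markers, at 28.6 to 55.5 CPM in sham and 24.9 to 38.96 CPM after PNX. Cfd was at 0.059 to 0.22 CPM in sham and 1.07 to 12.3 CPM after PNX, and Adipoq at 0 to 0.014 CPM in sham and 0.57 to 1.42 CPM after PNX. Their part in the higher Fabp4 was not tested.

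Cpt1c, a brain-type carnitine palmitoyltransferase, had 7.54, 7.45 and 9.80 CPM in sham and 13.3, 13.0 and 19.4 CPM after PNX, and rose by 0.89 on the log2 scale (edgeR adjusted p = 0.0023 with the block). Hacd1, an enzyme of chain elongation, had 5.72, 5.97 and 3.86 CPM in sham and 10.01, 8.29 and 6.04 CPM after PNX and rose by 0.65 (adjusted p = 0.0169). Among the genes that were lower, Gpihbp1, the capillary protein that anchors LPL at the vessel surface, had 168, 165 and 113 CPM in sham and 107, 106 and 64.8 CPM after PNX. The PNX libraries were all below the sham libraries, and Gpihbp1 fell by 0.72 ± 0.081 on the log2 scale (SE; edgeR adjusted p = 0.0013 with the block and 0.476 without). Lpin1, a phosphatidate phosphatase of triglyceride synthesis, had 126, 121 and 155 CPM in sham and 84.4, 81.4 and 102 CPM after PNX and fell by 0.59 (adjusted p = 0.0026). Ggps1, which makes geranylgeranyl diphosphate from farnesyl diphosphate, had 28.9, 28.3 and 24.1 CPM in sham and 21.1, 20.8 and 17.5 CPM after PNX and fell by 0.45 (adjusted p = 0.013).

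The other genes of that list under an adjusted p of 0.05 were Slc27a3 and Hsd17b12, higher by 0.45 and 0.43 log2 units, and Acacb (-0.44), Cyp27a1 (-0.43), Acsl3 (-0.42) and Pnpla2 (-0.37), which were lower. By group, the further sterol synthesis and uptake genes gave 2 of 20, both lower, the fatty acid and triglyceride synthesis genes 5 of 19, and the uptake, storage and oxidation genes 5 of 20, where 21.6% of all genes passed.

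Of the 7 members, Scd1, Cd36 and Fads2 kept an adjusted p under 0.05 in all 12 fits with the block that differed in scaling, tool, transcript choice, the summing of replicates or the library left out, whereas Abca1 did so in 9, Fabp5 in 8, Elovl6 in 7 and Fasn in 5. Without PNX replicate 1, 4 members remained under 0.05 in the blocked edgeR fit (Scd1, Fads2, Abca1 and Cd36), beside 17.6% of all genes tested. With the earlier deposit alone, whose 2 libraries per group differ by little more than counting error, 26 members were under 0.05, beside 63.9% of all genes tested, and Fabp5 was called at the thresholds of the study, beside 7.37% of all genes. The blocked fits that left out a library left out replicate 1 or 2 of a group, so the sample of that deposit stayed in, and none of the 12 was without a replicate 3.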

How the data were processed

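RNA was measured in mouse lung ECs of 3 sham and 3 PNX libraries, each pooled from 2 mice and grouped from the sample labels. The authors prepared stranded mRNA libraries, sequenced them paired-end and aligned the reads to mm10 (GRCm38). STAR is named in the submitters' processing notes, and how reads were counted, and whether by strand, is not given in the sources used. The authors deposited, for each library, whole-number counts of 33068 RefSeq transcripts with FPKM and TPM values. The deposited FPKM values were not used, and the deposited TPM values of the highest-count transcript served only to compare levels between genes. A read shared by transcripts may have been counted once or several times (not stated), and 12 of the 39 genes have more than 1 transcript.

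Counts were summed per symbol (24063 symbols). Replicates 1 and 2 of each group were summed because they differed by little more than counting error. The test across genes was the quasi-likelihood F test of edgeR 4.0.16 under R 4.3.3 (filterByExpr, TMM, glmQLFit, glmQLFTest, Benjamini-Hochberg over 16598 genes). As in the study, a call needed a log2 fold change beyond 1 in size with an adjusted p below 0.01. The study used DESeq2, which was run here as an alternative (1.42.0), as was limma-voom (3.58.1). The replicate block is the deposit. In the labels, replicates 1 and 2 are records re-used from an earlier deposit in sham and PNX alike, and the pairing was checked by the correlation of deposit differences. The biological coefficient of variation was 0.236 without and 0.0973 with the block, with 2 and 1 residual degrees of freedom. The scripts were tested on simulated data.

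The 39 genes, the pathway and marker lists and the threshold of 0.05 with the block were chosen with earlier results of these data known. Values in every library are given for genes under that threshold and for those with the largest changes in each role. Of the 60 further pathway genes, the 3 highest and 3 lowest log2 fold changes and any called gene are named. The other genes of that list under 0.05 were added after their values were seen. Positions are from GENCODE vM21 on GRCm38, promoter sequences from RefSeq on GRCm38.p6. Alternatives were other tools, scalings and filters, the transcript with the highest count, 6 separate libraries, the earlier deposit alone, each replicate left out, and combinations of these with the block or with the threshold of 0.05. The combinations of another choice with that threshold were added after the data were seen.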

Additional observations from a re-analysis of the deposited data

How the results depend on the processing

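The number of genes called rose from 0 to 849 with the replicate block, which called 0 members and 1 further pathway gene (Fabp4). With the block it was 727 with the transcript of the highest count, 624 with DESeq2's size factors, 646 with upper-quartile scaling, 629 with library size alone, 810 with DESeq2, 921 with limma-voom and 3584 at an adjusted p of 0.05 without a fold limit. Without the block it was 572 with DESeq2 on the 4 samples, 409 with 6 separate libraries (921 with DESeq2 and 1104 with the block) and 1203 with the earlier deposit alone, which called 1 member. With 1 library left out it was 0 to 2 without the block, the 2 without PNX replicate 3, and with the block 671 and 668 without sham replicates 1 and 2, 485 without PNX replicate 1 and 863 without PNX replicate 2. The pathway count was 1 in each of these fits, 12 at 0.05, and 0 to 1 without 1 library. The pairing therefore changed the calls of the 7 members. Members under 0.05 numbered 7 with the block (21.6% of all genes) and 0 without it (0% of all genes). With the block they numbered 4 with upper-quartile scaling (20.2%), with DESeq2's size factors (19.3%) or in DESeq2 (15%). Also with the block, they numbered 5 with library size alone (19.6%), 8 with the highest transcript (21.8%) and 9 with limma-voom (24.6%). Without replicate 1 or 2 of a group, still with the block, they numbered 4 to 6 (17.6% to 22% of all genes). They numbered 3 with 6 libraries (13.2% of all genes), 4 with 6 libraries in DESeq2 (22.1%), 20 with 6 libraries and the block (51.6%), 26 with the earlier deposit alone (63.9%) and 1 with DESeq2 on the 4 samples (5.34%).

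Of the members, 21 kept their sign in all 29 alternatives, and 18 members changed sign in 30 cases, 18 of them with a replicate 3 left out, when the lone sample of a group is assumed to vary like the other group. With the earlier deposit alone the log2 fold change turned to 0.11 for Idi1, 0.078 for Lss, 0.12 for Msmo1, 0.085 for Srebf1, 0.0023 for Acly and -0.00396 for Scap. Srebf1 also turned to 0.015 with 6 libraries, 0.013 with 6 libraries in DESeq2, 0.027 with 6 libraries and the block, 0.00015 with the block and the highest transcript, 0.0014 with the block and library size alone, and 0.0029 with the block without sham replicate 1. Without 1 library the ranges were -0.20 to 0.021 for Idi1, -0.35 to 0.30 for Lss, -0.093 to 0.066 for Msmo1, -0.012 to 0.12 for Nsdhl, -0.016 to 0.50 for Mvd, -0.52 to 0.11 for Insig1, -0.27 to 0.078 for Insig2, -0.16 to 0.22 for Srebf1, -0.26 to 0.12 for Srebf2, -0.10 to 0.16 for Scap, -0.25 to 0.077 for Acaca, -0.063 to 0.016 for Acly, -0.20 to 0.022 for Scd2, -0.53 to 0.22 for Abcg1, -0.36 to 0.21 for Nr1h3, -0.31 to 0.14 for Lpl, -0.30 to 0.064 for Acsl1 and -0.057 to 0.14 for Cpt1a. The cause of these changes was not tested. None of the 18 was under an adjusted p of 0.05 with the block. For the 7 members under 0.05 with the block the ranges without 1 library were -0.84 to -0.63 for Scd1, -0.80 to -0.40 for Cd36, -0.44 to -0.11 for Fasn, 0.20 to 0.89 for Fads2, 0.41 to 0.49 for Elovl6, 0.64 to 0.91 for Fabp5 and 0.015 to 0.53 for Abca1. The lowest was without PNX replicate 3 for Fads2 and Abca1, and without sham replicate 3 the fall of Fasn was smallest. The lowest count of a member in a library was 183.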

Other observations

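Markers of other cell groups and of cell division also differed between PNX and sham. The 6 club airway markers were all lower after PNX at an adjusted p of 0.05 in edgeR with the replicate block, with a median log2 ratio of -1.05 (earlier deposit) and -1.93 (later deposit). Of 8 fibroblast markers, 5 were higher (the matrix genes Col1a1, Col1a2, Col3a1, Dcn and Lum) and 1 lower (Pdgfra, -0.49). Pdgfrb (-0.095) and Tcf21 (-0.34) did not pass. The sum of the 8, which includes the matrix genes, was 1241 to 1508 CPM in sham and 3616 to 5041 CPM after PNX. All 8 genes of cell division were higher, with a median log2 ratio of 3.04 and 2.86 in the 2 deposits, and their sum was 66.6 to 119 CPM in sham and 569 to 867 CPM after PNX. These lists were chosen with earlier results of these data known.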
